A study of Mus musculus with 9 samples.

Results

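The genes described here encode the proteins of the cytosolic ribosome in mouse prefrontal cortex. They were chosen by symbol, as the Rpl, Rplp, Rps and Rpsa names without pseudogenes or ribosomal S6 kinases, and 79 of the 14444 genes measured matched. Of these, 30 belong to the small subunit, 42 to the large subunit, 3 to its stalk, and 4 are paralogs of core proteins (Rps4l, Rps27l, Rpl7l1 and Rpl22l1). The core proteins of the ribosome accounted for 75 of the 79, and core genes that the table lists under other symbols, such as Rps3a1, Fau and Gnb2l1, lie outside the rule. The rule itself uses symbols alone, but it was chosen with earlier results of these data known.

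A ribosome joins a small subunit, which decodes the mRNA, to a large subunit, which forms the peptide bonds. Each protein is needed in about equal number, and in mammals most of these mRNAs begin with a run of pyrimidines at the first transcribed base, the 5′ terminal oligopyrimidine (TOP) tract, through which mTORC1 and LARP1 control their translation. In neurons, ribosomal protein mRNAs are found in dendrites and axons as well as in the cell body.

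The study compared 3 groups of 3 cortex libraries from mice of 5 to 8 postnatal weeks. Shank3 mutants that received UNC0642, an inhibitor of the histone H3 lysine 9 methyltransferases EHMT1 and EHMT2, are called UNC0642 mutants; the dose was 1 mg/kg, injected into the peritoneum daily on 3 days. Saline mutants had the same Shank3 genotype and received saline, and wild-type mice received saline too. The labels give neither the Shank3 allele nor whether each library came from its own animal. The p-values set a difference between groups against the spread among libraries within groups, pooled over the groups in the fit. That spread can therefore be technical.

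There are 2 scales below, because the deposited values carry an adjustment. The adjustment gives saline mutants with UNC0642 replicate 1, and wild type with UNC0642 replicates 2 and 3, equal mean log2 values for each gene. Differences between groups in the deposited values therefore rest on how the UNC0642 libraries lie within these sets. The whole reads behind the values could be solved exactly, came to between 12035098 and 16165483 per library, and are given below as RPM, the usual scaling of reads by the library total. Values of RPM always refer to the recovered reads. In those reads the libraries divide differently, with UNC0642 replicates 1 and 2 on the side of the saline mutants and UNC0642 replicate 3 on the side of wild type. Genotype and this division cannot be told apart except through the UNC0642 libraries. Shank3 itself, which encodes an excitatory postsynaptic scaffold, stood at 294, 298 and 319 RPM in UNC0642 mutants, 337, 349 and 321 in saline mutants and 295, 309 and 357 in wild type, and wild type overlaps both mutant groups, so its total mRNA does not check the genotype labels.

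Start-site sequences are shown for 8 genes, picked after their sequences and values had been seen, because they show the pyrimidine run in varied lengths or lack it. Each is 60 bases of the strand of the gene from the RefSeq promoter table (GRCm38.p6), with 45 bases before the annotated start and 15 from it. Capitals mark a run of at least 6 pyrimidines that holds the annotated start, and the motif CGGAAG, the core bound by ETS-family factors.
Rpl14, chr9:120571472-120571531, plus strand: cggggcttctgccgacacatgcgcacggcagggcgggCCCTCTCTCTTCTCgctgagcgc
Rps6, chr4:86857353-86857412, minus strand: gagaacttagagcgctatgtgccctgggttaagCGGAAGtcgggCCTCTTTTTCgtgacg
Rpl28, chr7:4792920-4792979, plus strand: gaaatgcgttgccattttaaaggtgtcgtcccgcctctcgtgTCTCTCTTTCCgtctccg
Rpl35, chr2:39005117-39005176, minus strand: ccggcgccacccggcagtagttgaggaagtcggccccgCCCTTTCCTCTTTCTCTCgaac
Rps10, chr17:27635230-27635289, minus strand: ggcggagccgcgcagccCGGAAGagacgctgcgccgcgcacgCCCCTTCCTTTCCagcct
Rpl15, chr14:18270972-18271031, minus strand: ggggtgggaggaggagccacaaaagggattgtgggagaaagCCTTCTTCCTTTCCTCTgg
Rps2, chr17:24720018-24720077, plus strand: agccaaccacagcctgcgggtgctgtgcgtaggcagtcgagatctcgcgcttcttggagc
Rpl41, chr10:128549154-128549213, minus strand: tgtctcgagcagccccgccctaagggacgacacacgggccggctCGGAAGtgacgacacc

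Promoter entries were found for 58 of the 79 genes, with 69 windows of 300 bases (250 before the annotated start and 50 from it). A pyrimidine run over the start was present in 27.5% of these windows and in 7.25% of the 32851 windows of all genes. CGGAAG, searched on both strands, occurred in 60.9% of the ribosomal protein windows and 16.9% of all windows. The GC box GGGCGG, also on both strands and able to overlap the others, occurred in 62.3% against 35.7%, and TATAAA in 10.1% against 13.6%. A match describes the letters of a window and is not evidence that a factor binds there, and the absence of the run at an annotated start says only that these letters are not there. The saline mutant over wild type log2 difference in recovered reads had a median of 0.19 over the 19 genes with a run and 0.28 over the 39 without one.

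Ribosomal protein mRNAs were abundant. Their median level was 158 recovered RPM, against 25.4 for all genes, and 74 of the 79 lay above the all-gene median. Rpl4, which lines the peptide exit tunnel, had 526, 500 and 464 RPM in UNC0642 mutants, 526, 506 and 524 in saline mutants and 417, 415 and 452 in wild type. Rpl3, beside the peptidyl transferase centre, had 529, 517 and 439 in UNC0642 mutants, 531, 533 and 563 in saline mutants and 410, 371 and 384 in wild type, so the order of Rpl4 and Rpl3 differs between groups. Rpsa, a small-subunit protein related to the laminin receptor, had 430, 397 and 421 in UNC0642 mutants, 435, 464 and 431 in saline mutants and 366, 346 and 419 in wild type.

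Per kilobase of transcript, available for 78 genes, the median was 227 RPM per kilobase, with quartiles of 152 and 304. The highest per-length levels were those of Rplp1, a stalk protein, at 781, of Rpl41, a very short peptide of the large subunit, at 689 and of Rps15, of the small subunit, at 597. By role, the per-length medians were 244 for the small subunit, 214 for the large subunit, 229 for the stalk and 33.8 for the paralogs. Rps20 came to only 32, with an annotated length of 3706 bases.

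At the other end stood 3 core genes with almost no reads. Rps27, a zinc-finger protein of the small subunit, had 1.14, 0.866 and 1.25 RPM in UNC0642 mutants, 1.12, 0.985 and 1.25 in saline mutants and 0.582, 1.43 and 1.12 in wild type. Rpl30 had 1.23, 1.05 and 1.39 in UNC0642 mutants, 1.04, 0.657 and 1.05 in saline mutants and 1.83, 0.904 and 0.402 in wild type. Rpl34 averaged 1.43 ± 0.156, 1.21 ± 0.418 and 1.59 ± 0.283 in UNC0642 mutants, saline mutants and wild type (SD, n = 3 each). These values rest on as few as 5 reads in a library, and all groups overlap for each of these genes. The reason for their low counts beside proteins of the same particle was not tested.

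**Figure D1:**
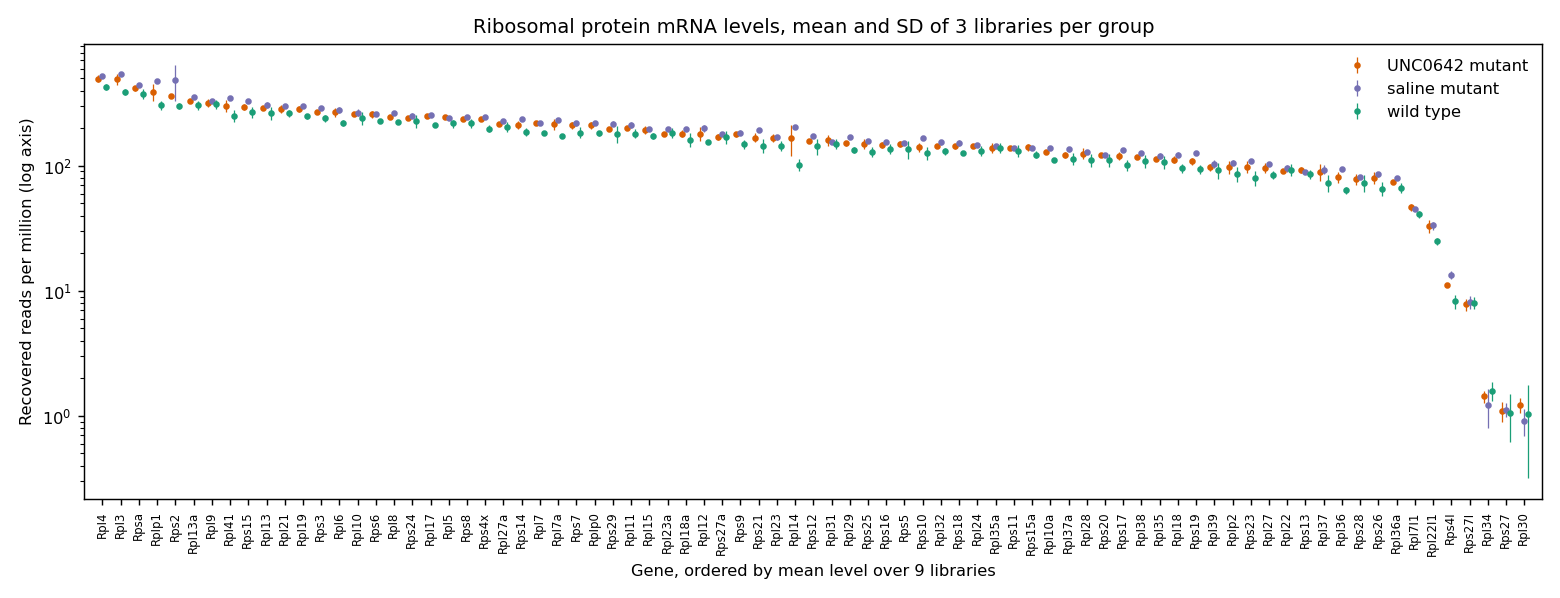
Mean recovered RPM (log axis) of each of the 79 genes in UNC0642 mutant, saline mutant and wild-type cortex, with bars for the SD of 3 libraries. Most genes lie between 73.5 and 481 RPM; the paralogs and Rpl34, Rps27 and Rpl30 form the low end.

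The summed ribosomal protein mRNA was highest in saline mutants in recovered reads, but not in the deposited values. In recovered reads it was 14667, 14088 and 13528 RPM in UNC0642 mutants, 15084, 15363 and 14977 in saline mutants and 12175, 11644 and 13518 in wild type. All saline mutant libraries lay above all UNC0642 and wild-type libraries, and wild-type replicate 3 was level with UNC0642 replicate 3. In the deposited values the sums were 13575, 15207 and 14492 in UNC0642 mutants, 14038, 14250 and 14000 in saline mutants and 13454, 12577 and 14247 in wild type, and the groups overlapped. UNC0642 replicate 2 was the highest of the 9 libraries for 40 of the 79 genes in the deposited values (25% of all genes) and for 2 in recovered reads (9.36%). In bulk tissue, fewer cells of a type and less RNA per cell cannot be told apart.

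**Figure D2:**
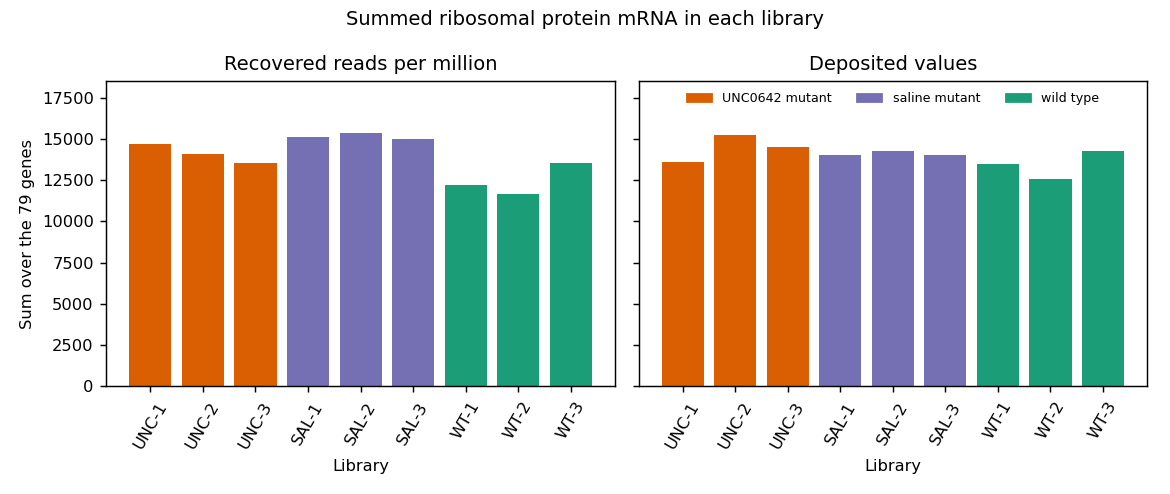
Sum over the 79 genes in each library, in recovered RPM (left) and in deposited values (right), with bars from 0 coloured by group. In recovered reads the saline mutant libraries are the highest (14977 to 15363); in deposited values the highest is UNC0642 replicate 2 (15207).

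In saline mutants against wild type, the deposited values gave no called gene. The adjustment fixes this difference by where the UNC0642 libraries lie within their sets, so these values cannot test genotype. The limma test called 0 of 79 ribosomal protein genes and 0 of 14444 genes (0%) at an adjusted p under 0.05, and 0 of the 79 had an unadjusted p under 0.05, against 19 of all genes. The log2 difference was positive for 72 of the 79, with a median of 0.06 against 0.00 for all genes. The smallest p-values belonged to Rpl36 (0.18 ± 0.11, SE), Rps4l (0.24 ± 0.15), Rpl14 (0.21 ± 0.14) and Rplp1 (0.15 ± 0.11), each with a limma adjusted p of 1.

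In recovered reads, 35 of the 79 genes were called higher in saline mutants than in wild type and 0 lower (limma-voom with no term for the division), while 5.13% of all genes were called higher and 6.81% lower. The difference was positive for 78 of the 79, with a median of 0.25 on the log2 scale against -0.01 for all genes. The calls fell on 14 of 30 small-subunit genes, 17 of 42 large-subunit genes, 2 of 3 stalk genes and 2 of 4 paralogs. These calls depended on single libraries: the count was 0 without saline mutant replicate 1, 0 without saline mutant replicate 3, 0 without wild-type replicate 2 and 4 without saline mutant replicate 2, and it lay between 23 and 48 without any one of the other libraries. The median stayed between 0.205 and 0.316 in all of those fits. The number of calls over all genes also changed widely between leave-one-out fits. The dependence on single libraries is therefore not shown to be particular to ribosomal protein genes. The lowest saline mutant library lay above the highest wild-type library for 51 of the 79 genes (20.2% of all genes) and the reverse held for 0 (20.5% of all genes). Saline mutants lay above wild type and UNC0642 replicate 3 for 47 of the 79 (17.2% of all genes) and below for 0 (17.9%). All 5 libraries on the saline mutant side lay above the 4 on the wild-type side for 35 (14.3%) and below for 0 (13.8%).

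Rpl14, a large-subunit protein, had the largest difference. It stood at 201, 186 and 114 RPM in UNC0642 mutants, 202, 212 and 199 in saline mutants and 100, 92 and 113 in wild type. UNC0642 replicates 1 and 2 thus lay near the saline mutants and UNC0642 replicate 3 just above wild type. Its saline mutant over wild type log2 difference was 1.01 ± 0.16 (SE; limma-voom adjusted p = 0.013), and 0.26 ± 0.14 once the fit held a term for the division (adjusted p = 0.97).

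Rplp1, whose acidic tail recruits elongation factors to the stalk, had 423, 426 and 322 RPM in UNC0642 mutants, 479, 483 and 456 in saline mutants and 287, 296 and 335 in wild type. Saline mutants exceeded wild type by 0.63 ± 0.10 (limma-voom adjusted p = 0.013), and by 0.23 ± 0.12 once the fit held that term (adjusted p = 0.97). Its partner Rplp2 had 109, 97 and 85.3 in UNC0642 mutants, 105, 112 and 101 in saline mutants and 86.5, 74.7 and 97.2 in wild type, a saline mutant difference of 0.31 ± 0.11 that missed the threshold (adjusted p = 0.076). Rplp0, which anchors them, had 214, 223 and 194 in UNC0642 mutants, 218, 219 and 227 in saline mutants and 177, 176 and 192 in wild type, and was called (0.28 ± 0.07, adjusted p = 0.033).

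Rps2, a small-subunit protein near the mRNA entry, was high in 1 library, an observation made after its values were seen. It had 362 RPM in each UNC0642 library, 397, 668 and 392 in saline mutants and 305, 283 and 318 in wild type. Saline mutant replicate 2 was thus far above the other saline mutant libraries, while those still exceeded all UNC0642 and wild-type libraries. Without Rps2, the summed level of the other 78 genes was 14305, 13726 and 13167 in UNC0642 mutants, 14687, 14694 and 14585 in saline mutants and 11869, 11360 and 13200 in wild type, and the saline mutant libraries were again the highest.

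**Figure D3:**
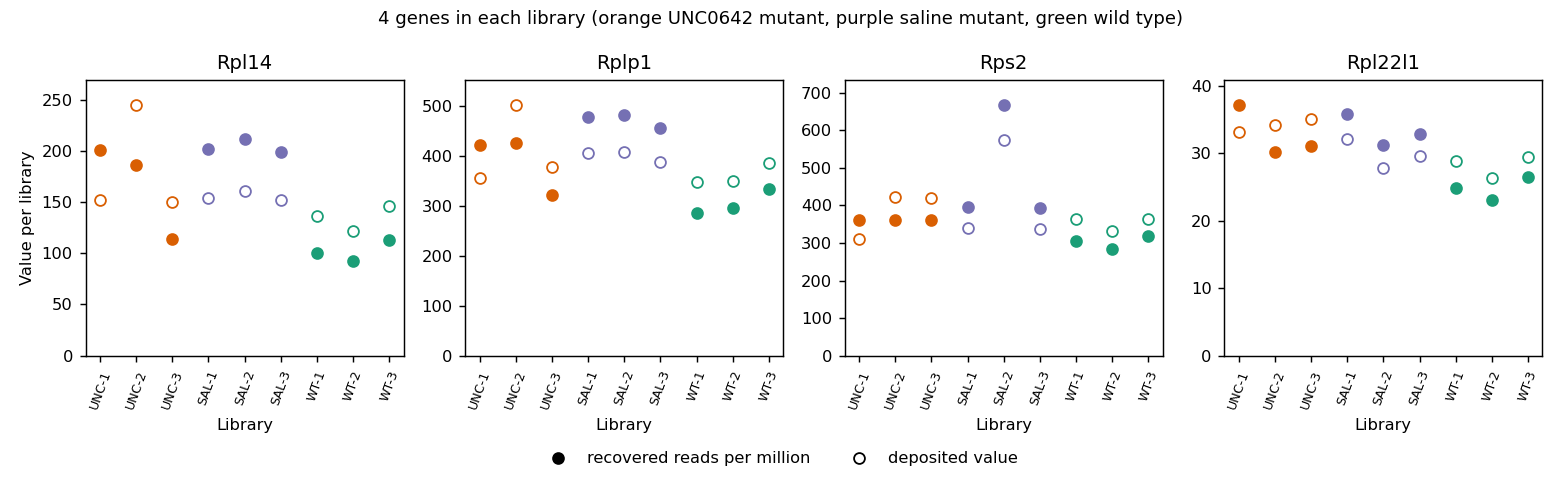
Recovered RPM (filled) and deposited values (open) of Rpl14, Rplp1, Rps2 and the paralog Rpl22l1 in each library, with axes from 0. Rpl14 separates by the division of the libraries rather than by group (186 to 212 against 92 to 114 recovered RPM), and Rps2 is high in saline mutant replicate 2 alone (668).

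Genes with roles outside the ribosome or in disease were followed whatever their values. Rps6, the substrate of S6 kinase, had 270, 266 and 241 RPM in UNC0642 mutants, 253, 260 and 271 in saline mutants and 233, 221 and 235 in wild type, a saline mutant difference of 0.19 ± 0.07 (limma-voom adjusted p = 0.096). Rps19, mutated in Diamond-Blackfan anaemia, had 117, 105 and 106 in UNC0642 mutants, 127, 125 and 126 in saline mutants and 90.1, 88.9 and 103 in wild type, and was called (0.43 ± 0.08, adjusted p = 0.018). All saline mutant libraries lay above all others for Rps19, whereas for Rps6 saline and UNC0642 mutants overlapped.
Rps4x, the X-linked form of S4, was called too (0.31 ± 0.07, adjusted p = 0.024), as was Rps25, needed for some internal ribosome entry (0.30 ± 0.09, adjusted p = 0.042). Rpl5 (0.16 ± 0.07, adjusted p = 0.16) and Rpl11 (0.23 ± 0.08, adjusted p = 0.07), which with 5S RNA can bind MDM2, were not called. Neither were Rpl10, a late-joining protein of the large subunit (0.15 ± 0.09, adjusted p = 0.25), Rps27a, made as a fusion with ubiquitin (0.10 ± 0.09, adjusted p = 0.43), and Rpl38, known in mice for its role in translating Hox mRNAs (0.23 ± 0.09, adjusted p = 0.096).

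Paralogs and their core partners are set side by side. Rpl22l1, the paralog of Rpl22, had 37.2, 30.2 and 31.1 RPM in UNC0642 mutants, 35.9, 31.2 and 32.9 in saline mutants and 24.8, 23.1 and 26.5 in wild type, and was called in saline mutants (0.42 ± 0.11, limma-voom adjusted p = 0.034). Rpl22 had 93, 88.8 and 90.8 in UNC0642 mutants, 101, 89.9 and 95.1 in saline mutants and 86.9, 87.4 and 106 in wild type (0.03 ± 0.09, adjusted p = 0.81). Every UNC0642 and saline mutant library exceeded every wild-type library for Rpl22l1, while the groups overlapped for Rpl22; the difference between the 2 genes was not tested.
For Rpl7 the call (0.25 ± 0.07, adjusted p = 0.038) was not shared by Rpl7l1 (0.13 ± 0.09, adjusted p = 0.31). Rps4l, a paralog of Rps4x, had 10.9, 10.9 and 11.4 in UNC0642 mutants, 14.6, 12.8 and 12.8 in saline mutants and 7.06, 8.97 and 8.6 in wild type (0.70 ± 0.15, adjusted p = 0.021). Rps27l overlapped between groups (0.03 ± 0.17, adjusted p = 0.93). Rpl39, at the exit tunnel, was not called (0.16 ± 0.10, adjusted p = 0.28). Near-identical rows, as they are called here, were found by symbol alone and exist for 13 of the 79 genes. They include paralogs such as Rpl7l1 and Rpl22l1, and copies under unrelated symbols were not looked for. How reads were assigned between copies is not given in the sources used here.

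Some of those copies had reads almost only on the saline mutant side of the division. Rpl31-ps12 had 137, 156 and 4 reads in UNC0642 mutants, 98, 162 and 159 in saline mutants and 0, 0 and 1 in wild type. Rpl37rt, a copy of Rpl37, had 114, 188 and 2 in UNC0642 mutants, 101, 178 and 171 in saline mutants and 3, 2 and 1 in wild type. Rps15a-ps6 had 30, 62 and 0 in UNC0642 mutants, 34, 54 and 39 in saline mutants and 0, 1 and 0 in wild type. Beside these, Rpl31 had 150, 151 and 177 RPM in UNC0642 mutants, 151, 155 and 158 in saline mutants and 147, 140 and 164 in wild type, with no separation of groups. Rpl37 had 103, 91.3 and 75 RPM in UNC0642 mutants, 92.1, 101 and 85.7 in saline mutants and 65.9, 67.5 and 86.3 in wild type. Its saline mutant over wild type log2 difference was 0.35 ± 0.13 (limma-voom adjusted p = 0.078). That of Rps15a was 0.17 ± 0.08 (limma-voom adjusted p = 0.14), and neither gene was called. Over the 66 genes without a near-identical row by symbol, 29 were called and the median was 0.25, as over all 79. Sequences were not compared, so these 66 are not shown to lack similar copies.

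With the division as a term in the fit, the saline mutant over wild type difference is the sum of saline mutants over UNC0642 replicates 1 and 2, and of UNC0642 replicate 3 over wild type. It stayed positive for 75 of the 79 genes, with a median of 0.20 against -0.01 for all genes, and 0 genes were called (0% of all genes). An unadjusted p under 0.05 was reached by 13 of the 79 (16.5%) and 711 of 14444 genes (4.92%). The largest such differences were those of Rps4l (0.76 ± 0.25, limma-voom adjusted p = 0.86) and Rps2 (0.64 ± 0.27, adjusted p = 0.97), the second of which includes the 668 RPM of saline mutant replicate 2. On the wild-type side this value rests on UNC0642 replicate 3 alone, with no replicate. In the same fit the meningeal fibroblast markers had a median of 1.20, with 12 of 14 at an unadjusted p under 0.05, the astrocyte markers one of 0.34, the microglia markers 0.26 and the oligodendrocyte markers -0.68, with 0 of 12 positive; their part in the ribosomal protein differences was not tested.

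UNC0642 mutants against saline mutants gave differences of opposite sign on the 2 scales. In the deposited values 59 of the 79 differences were positive, the median was 0.025 against 0.00 for all genes, and 0 genes were called (0%; unadjusted p under 0.05 for 0 of the 79 and 281 of all genes). Without UNC0642 replicate 2 that median was -0.000. The smallest p-values belonged to Rpl22l1 (0.19 ± 0.10), Rpl7 (0.12 ± 0.07), Rps15a (0.11 ± 0.07) and Rpl37 (0.14 ± 0.10), each with a limma adjusted p of 1.
In recovered reads, with the comparison kept to UNC0642 replicates 1 and 2 and the 3 saline mutant libraries, which lie on 1 side of the division, 14 of the 79 differences were positive and the median was -0.07 against 0.02 for all genes. No gene was called by limma-voom (0%), while 11 of the 79 (13.9%) and 853 of all genes (5.91%) had an unadjusted p under 0.05. Both UNC0642 libraries lay below all saline mutant libraries for 32 of the 79 genes (9.53% of all genes) and above them for 3 (12.8%). Leaving out any one of the 5 libraries left the median between -0.098 and -0.030. The astrocyte markers had a median of -0.14 in this comparison, the meningeal fibroblast markers -0.21 and the microglia markers -0.09. Those of oligodendrocyte precursors had -0.11, of endothelial cells 0.00, of neurons 0.02 and of oligodendrocytes 0.54. Their part in the ribosomal protein differences was not tested.

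Among the genes with values already given, Rplp1 differed by -0.15 ± 0.05, Rps19 by -0.19 ± 0.07 and Rps2 by -0.38 ± 0.17 in that comparison, each with a limma-voom adjusted p of 0.83. For Rplp1 and Rps19 both UNC0642 libraries lay below all saline mutant libraries, and for Rps2 the size rests on saline mutant replicate 2. Rpl41 had 327, 311 and 263 RPM in UNC0642 mutants, 345, 367 and 340 in saline mutants and 247, 226 and 283 in wild type (-0.14 ± 0.05, adjusted p = 0.83). Rps10 had 152, 144 and 128 in UNC0642 mutants, 162, 172 and 164 in saline mutants and 127, 110 and 141 in wild type (-0.17 ± 0.06, adjusted p = 0.83). In both genes every saline mutant library lay above all other libraries. Rpl41 and Rps10 were picked with these values in view, so their shared order is no separate support.

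UNC0642 mutants against wild type gave 73 of 79 positive differences in the deposited values, with a median of 0.09 against 0.00 for all genes. No gene was called (0%), and 8 of the 79 (10.1%) and 1238 of all genes (8.57%) had an unadjusted p under 0.05. The smallest p-values were those of Rpl14 (0.40 ± 0.14), Rpl22l1 (0.27 ± 0.10), Rpl7 (0.19 ± 0.07) and Rpl17 (0.18 ± 0.07), each with a limma adjusted p of 0.58. The size for Rpl14 rests largely on UNC0642 replicate 2, at a deposited value of 245 against 152 and 150 in replicates 1 and 3. In recovered reads that library had 186 RPM.
In recovered reads the median was 0.17 and 0 of the 79 were called, with 0.0554% of all genes called. Leaving out UNC0642 replicate 3, the library on the wild-type side, gave 31 called ribosomal protein genes and 2959 called genes. That library alone against wild type gave 74 of 79 positive differences with a median of 0.12 against 0.01 for all genes, and 0 of the 79 called (0.0138% of all genes). With only 1 library in that arm, its spread was taken from the wild-type libraries. It lay above the wild-type range for 32 genes (22.6% of all genes), within it for 47 and below it for 0 (19.3% of all genes). Wild-type replicate 3 was the highest wild-type library for 67 of the 79 genes (46.3% of all genes). Meningeal fibroblast markers had a median of 1.08 in the comparison of UNC0642 replicate 3 with wild type.

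**Figure D4:**
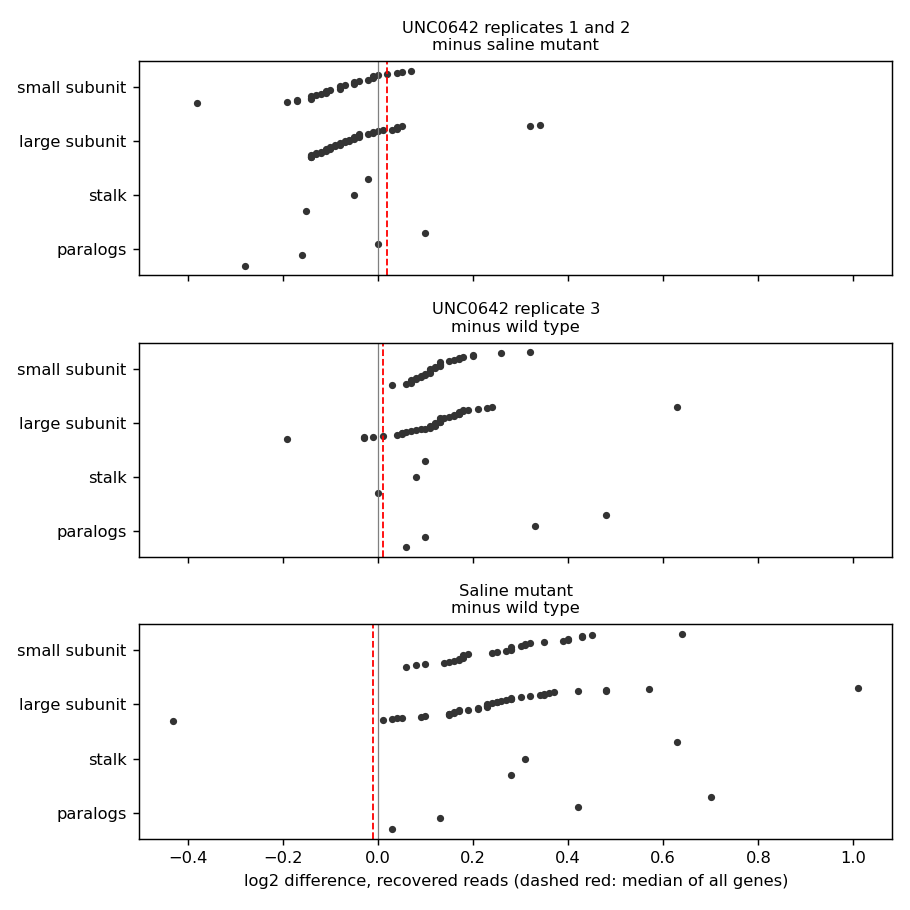
log2 differences in recovered reads for each gene by role, for UNC0642 replicates 1 and 2 minus saline mutants (top), UNC0642 replicate 3 minus wild type (middle) and saline mutants minus wild type (bottom); the dashed line is the median of all genes. The medians over the 79 genes are -0.07, 0.12 and 0.25.

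The genes followed each other across libraries. The correlation of a gene's log2 level with the mean of the other 78 had a median of 0.90 over the 9 libraries in recovered reads and 0.77 in deposited values, as a description of libraries that share groups, depth and the division. In recovered reads it exceeded 0.8 for 61 genes and was under 0.5 for 7, the lowest being Rpl34 (-0.57), Rpl30 (-0.22), Rps27 (0.14) and Rps27l (0.16). The mean log2 level of the ribosomal protein genes also followed other lists in these reads. Its correlation was 0.82 with mitochondrial ribosomal proteins, 0.80 with oxidative phosphorylation subunits and 0.68 with proteasome subunits. It was -0.80 with the mTORC1, S6 kinase and LARP1 list, -0.69 with nuclear-retained RNAs and 0.13 with neuronal markers. No such value is given for all genes, so close following is not shown to be particular to ribosomal protein genes. The difference between saline mutants and wild type showed little relation to transcript length (Spearman's rho of -0.09 over 74 genes) or to level (0.04).

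**Figure D5:**
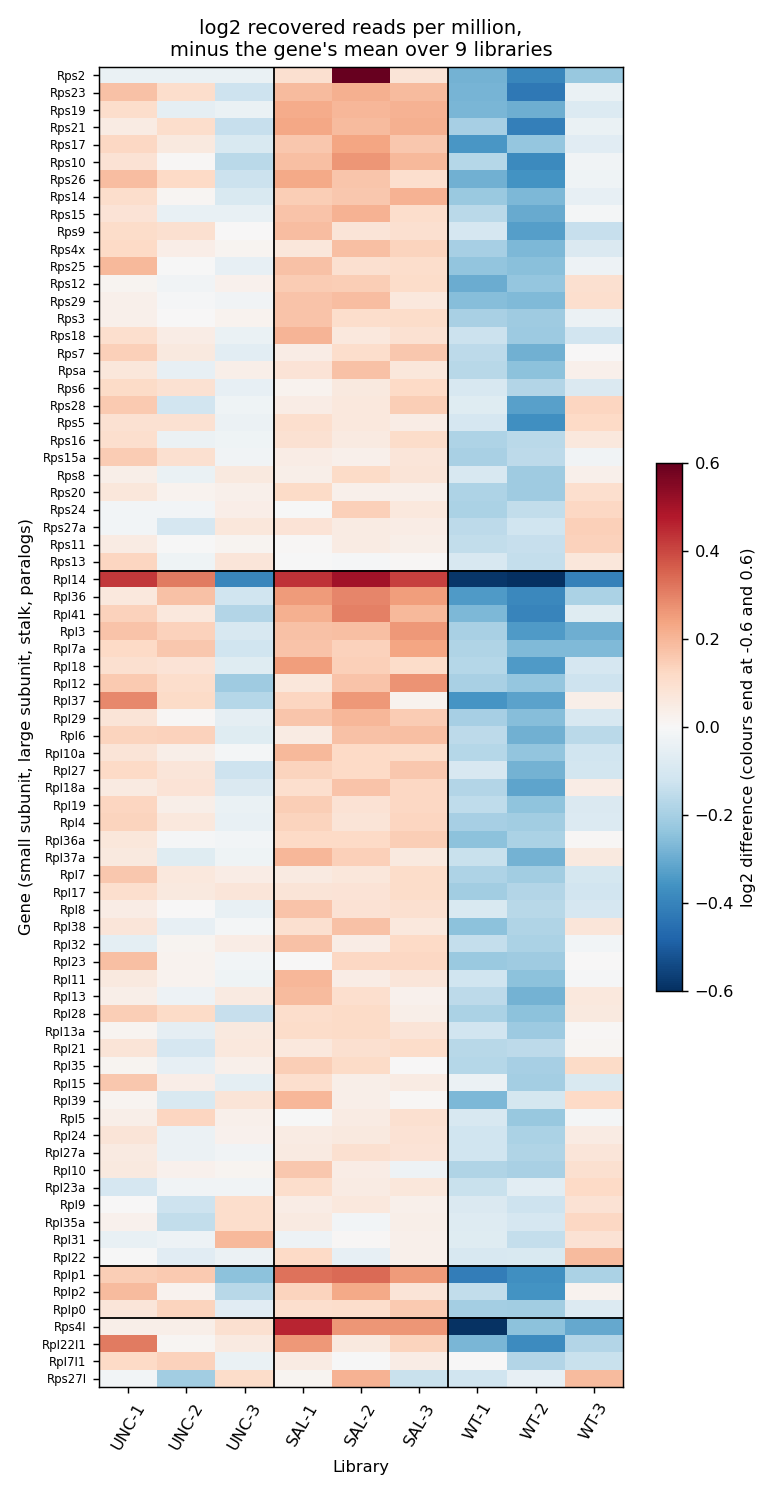
log2 recovered RPM in each library minus the mean of the gene over the 9 libraries, for the genes above 5 RPM (without Rpl34, Rps27 and Rpl30), ordered by role and by the saline mutant over wild type difference. Saline mutant libraries are mostly red, wild-type replicates 1 and 2 mostly blue, and wild-type replicate 3 and UNC0642 replicate 3 lie between.

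Other gene lists are given for saline mutants against wild type in recovered reads without a term for the division, where 5.13% of all genes were called higher and 6.81% lower. Nuclear-encoded oxidative phosphorylation subunits had 25 of 78 called higher and 0 lower (median 0.28), mitochondrial ribosomal proteins 9 of 77 and 0 (0.25), and proteasome subunits 8 of 38 and 0 (0.27). Once the fit held a term for the division, their medians were 0.00, -0.01 and 0.02, beside 0.20 for the cytosolic ribosomal proteins; the differences between these lists were not tested. Genes outside the symbol rule whose mRNAs are known to carry a TOP tract had 3 of 19 called higher and 0 lower (median 0.16, and 0.06 with the term). The list includes core ribosomal protein genes under other symbols, and 2 of the 3 called, Fau and Gnb2l1, are such genes. The other was Eef1a1, which delivers aminoacyl-tRNA and had 2050, 2050 and 1900 RPM in UNC0642 mutants, 1970, 1980 and 2070 in saline mutants and 1620, 1600 and 1710 in wild type.
Initiation factors had 5 of 34 called higher and 1 lower, led by Eif6, which keeps free large subunits from joining (0.56 ± 0.10, limma-voom adjusted p = 0.018), and Eif3i (0.39 ± 0.09, adjusted p = 0.024). Ribosome assembly factors had 3 of 43 called higher and 3 lower, near the shares of all genes, with a median of 0.03; the smallest p-values were those of Heatr1, of small-subunit processing (-0.57 ± 0.12, adjusted p = 0.02), and Mdn1, a large-subunit remodelling enzyme (-0.74 ± 0.16, adjusted p = 0.022). A list of mTORC1, S6 kinase and LARP1 genes had 0 of 24 called higher and 1 lower (median -0.10). It also holds the Rps6ka kinases, a separate family, and the gene called was 1 of them, Rps6ka3 (-0.52 ± 0.09, limma-voom adjusted p = 0.016). Rps6kb1, which encodes S6 kinase, was not called (-0.32 ± 0.10, adjusted p = 0.051). Of the core ribosomal protein genes outside the rule, Rps3a1 gave a saline mutant difference of 0.12 ± 0.08 (limma-voom adjusted p = 0.29), Fau, a ubiquitin-like fusion with a small-subunit protein, one of 0.41 ± 0.10 (adjusted p = 0.025) and Gnb2l1 one of 0.26 ± 0.08 (adjusted p = 0.045).

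Markers of cell types and of nuclear RNA varied between the same libraries, not all with the ribosomal protein genes. Neuronal markers, all 12 of which were measured, summed to between 13877 and 14633 recovered RPM in UNC0642 mutants, 14879 and 15211 in saline mutants and 13835 and 15012 in wild type. Astrocyte markers (12 of 12 measured) summed to 5758, 6305 and 9291 in UNC0642 mutants, 6493, 6981 and 6453 in saline mutants and 7291, 7627 and 9905 in wild type. Oligodendrocyte markers (12 of 12) ranged from 2752 to 5286 in UNC0642 mutants, 1618 to 3736 in saline mutants and 3176 to 5283 in wild type. Meningeal fibroblast markers (14 of 14) summed to 172, 244 and 371 in UNC0642 mutants, 252, 251 and 218 in saline mutants and 158, 160 and 260 in wild type, highest in UNC0642 replicate 3. Nuclear-retained RNAs (9 of 10) summed to 6626, 6196 and 7722 in UNC0642 mutants, 5784, 6439 and 6088 in saline mutants and 6683, 8615 and 10032 in wild type. The part of these cells and RNAs in the ribosomal protein differences was not tested.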

How the data were processed

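RNA was taken with Trizol and libraries were stranded and depleted of ribosomal RNA, per the labels' protocols. cutadapt, TopHat2, HTSeq and the mm9 build are named per the submitters' processing notes; for versions, normalization and strand setting the sources used here give nothing. What the authors deposited is a signal per gene, named CPM. The values were adjusted: of 255 divisions of the libraries, 1 gave equal mean log2 values for every gene, to within 2.5e-09, against 0.875 for the next. Whole reads were solved for 14444 of 14444 genes, to within 4.1e-05 reads of a whole number, with a prior of 3.00 reads.

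The members, lists and settings were chosen with earlier results of these data known. limma 3.58.1 (R 4.3.3) with a trend was used on log2(value + 0.5) of all 9 libraries, with Benjamini-Hochberg adjustment over 14444 genes and calls at an adjusted p under 0.05; the scale understates changes of low genes. Recovered reads were fitted with limma-voom, with and without the division as a term or within 1 side. The fit was tested on simulated data. Named genes were the 4 of smallest p in each comparison, the 3 highest and 3 lowest, a list by role, and the 2 that follow the mean least, 30 in all; any further gene was picked with its values in view. Transcript lengths are those of the shortest basic APPRIS principal transcript in GENCODE M21, a rule set after longer choices gave implausible lengths. Some lengths stayed long, such as 3706 bases for Rps20, and the per-length levels of such genes may be too low. Alternatives were other scaling factors, pseudocounts of 1 and 0.1, a filter that kept the 14425 genes with a value of 1 or more in 3 or more libraries, fits with 2 groups, a block for the replicate number, fits without each library, a threshold of 0.1 and members without a near-identical row. Median-of-ratios factors, 2 groups only and leave-one-out in recovered reads were added after seeing the data. Tables were made with pandas 2.3.3 and numpy 2.4.6 in Python 3.11.15, and figures with matplotlib 3.10.9.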

Additional observations from a re-analysis of the deposited data

How the results depend on the processing

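No ribosomal protein gene was called in any comparison of the deposited values, whichever scaling factors, pseudocount, filter, threshold or set of libraries was used. The adjustment described above limits what these comparisons can show. The cause of the changes below was not tested. Over all genes the deposited values gave 5 calls for saline mutants against wild type with only the 2 groups in the fit. Recovered reads changed the results most. For saline mutants against wild type they gave 35 called ribosomal protein genes without the division as a term, 39 with median-of-ratios factors and 42 with only the 2 groups, against 0 with the division as a term; all genes called numbered 1725, 1797 and 3117. The median log2 difference was 0.251, 0.261 and 0.251 in those fits and 0.199 with the term. For UNC0642 mutants against saline mutants the median turned negative, at -0.081 without the term, -0.097 with median-of-ratios factors, -0.082 with only the 2 groups, -0.066 with the term and on 1 side of the division, and -0.079 on 1 side with median-of-ratios factors. For UNC0642 mutants against wild type, 8 genes were called without the term, 10 with median-of-ratios factors, 3 with the term and 2 on 1 side. The summed level in recovered RPM was 15141 for saline mutants and 12445 for wild type.

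Leaving out each library in turn, over both deposited values and recovered reads, moved the called ribosomal protein genes from 0 to 48 for saline mutants against wild type and from 0 to 31 for UNC0642 mutants against wild type. All genes called moved from 0 to 3550, 0 to 2959 and, for UNC0642 mutants against saline mutants, 0 to 2. The medians ranged from 0.015 to 0.316, from 0.044 to 0.234 and from -0.107 to 0.068. In recovered reads, 0 ribosomal protein genes were called for saline mutants against wild type without saline mutant replicate 1, without saline mutant replicate 3 or without wild-type replicate 2.

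Sign changes affected 46 of the 90 log2 differences of named genes. For UNC0642 mutants against saline mutants, recovered reads without the term, and likewise with only the 2 groups, gave Rpl36 -0.22, Rps4l -0.26, Rpl14 -0.34, Rplp1 -0.29, Rpl22l1 -0.03, Rpl37 -0.07, Rpl17 -0.01, Rpsa -0.09, Rpl3 -0.14, Rpl4 -0.06, Rps27 -0.06, Rplp0 -0.07, Rplp2 -0.13, Rps6 -0.01, Rpl11 -0.08, Rps19 -0.21, Rpl10 -0.02, Rps4x -0.07, Rpl38 -0.11, Rps25 -0.08. With median-of-ratios factors they gave Rpl36 -0.24, Rps4l -0.28, Rpl14 -0.35, Rplp1 -0.30, Rpl22l1 -0.05, Rpl7 -0.01, Rpl37 -0.08, Rpl17 -0.03, Rpsa -0.11, Rpl3 -0.15, Rpl4 -0.08, Rps27 -0.07, Rplp0 -0.09, Rplp2 -0.15, Rps6 -0.03, Rpl11 -0.10, Rps19 -0.22, Rpl10 -0.04, Rps4x -0.08, Rpl38 -0.12, Rps25 -0.10. With the division as a term they gave Rpl36 -0.14, Rps4l -0.28, Rpl14 -0.08, Rplp1 -0.15, Rpl22l1 0.00, Rpl17 -0.01, Rpsa -0.10, Rpl3 -0.05, Rpl4 -0.02, Rps27 -0.17, Rplp0 -0.02, Rplp2 -0.04, Rpl11 -0.06, Rps19 -0.19, Rpl10 -0.01, Rps4x -0.05, Rpl38 -0.10, Rps25 -0.03. On 1 side of the division they gave Rpl36 -0.14, Rps4l -0.28, Rpl14 -0.08, Rplp1 -0.15, Rpl22l1 0.00, Rpl17 -0.01, Rpsa -0.11, Rpl3 -0.05, Rpl4 -0.02, Rps27 -0.17, Rplp0 -0.02, Rplp2 -0.05, Rpl11 -0.06, Rps19 -0.19, Rpl10 -0.01, Rps4x -0.05, Rpl38 -0.10, Rps25 -0.04, and there with median-of-ratios factors Rpl36 -0.16, Rps4l -0.30, Rpl14 -0.10, Rplp1 -0.17, Rpl22l1 -0.02, Rpl17 -0.03, Rpsa -0.12, Rpl3 -0.07, Rpl4 -0.03, Rps27 -0.19, Rplp0 -0.03, Rplp2 -0.06, Rpl11 -0.08, Rps19 -0.20, Rpl10 -0.03, Rps4x -0.06, Rpl38 -0.12, Rps25 -0.05. For UNC0642 mutants against wild type the changed values were Rplp2 0.00, Rps27a 0.11, Rps27l 0.10 on 1 side and with the term, Rps27a 0.03 without it or with only the 2 groups, 0.02 with median-of-ratios factors and 0.00 with upper-quartile factors on the deposited values. For saline mutants against wild type they were Rpl37 -0.01, Rpl30 0.30, Rpl7l1 -0.04, Rpl22 0.03, Rps27l 0.26 with the term, Rpl30 0.01, Rpl22 0.03, Rps27l 0.03 without it or with only the 2 groups, and Rpl30 0.03, Rpl22 0.04, Rps27l 0.04 with median-of-ratios factors. In the deposited values Rps27 came to 0.00 with median-of-ratios factors or a pseudocount of 1, and Rpl30 to 0.03 with a pseudocount of 0.1 and 0.00 with upper-quartile factors.

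Leave-one-out fits changed the sign of 45 of those differences. For UNC0642 mutants against saline mutants their ranges were Rpl10 -0.07 to 0.09, Rpl11 -0.12 to 0.06, Rpl14 -0.48 to 0.31, Rpl17 -0.03 to 0.13, Rpl22l1 -0.14 to 0.24, Rpl3 -0.19 to 0.16, Rpl34 -0.13 to 0.58, Rpl36 -0.30 to 0.14, Rpl37 -0.17 to 0.21, Rpl38 -0.16 to 0.04, Rpl39 -0.17 to 0.05, Rpl4 -0.11 to 0.10, Rpl5 -0.01 to 0.10, Rpl7 -0.02 to 0.15, Rplp0 -0.12 to 0.10, Rplp1 -0.36 to 0.12, Rplp2 -0.22 to 0.09, Rps15a -0.01 to 0.14, Rps19 -0.26 to 0.07, Rps25 -0.15 to 0.11, Rps27 -0.35 to 0.11, Rps27l -0.25 to 0.03, Rps4l -0.31 to 0.18, Rps4x -0.10 to 0.12, Rps6 -0.04 to 0.10, Rpsa -0.16 to 0.05. For UNC0642 mutants against wild type they were Rpl22 -0.10 to 0.06, Rpl30 -0.07 to 0.94, Rpl34 -0.23 to 0.08, Rpl39 -0.04 to 0.19, Rplp2 -0.03 to 0.26, Rps27 -0.25 to 0.37, Rps27a -0.06 to 0.12, Rps27l -0.14 to 0.04. For saline mutants against wild type they were Rpl10 -0.01 to 0.24, Rpl22 -0.06 to 0.13, Rpl30 -0.51 to 0.50, Rpl34 -0.69 to 0.10, Rpl37 -0.02 to 0.48, Rpl38 0.00 to 0.33, Rpl39 -0.03 to 0.27, Rplp2 -0.08 to 0.40, Rps27 -0.20 to 0.42, Rps27a -0.01 to 0.20, Rps27l -0.09 to 0.12.

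Samples with the same replicate number had correlations of their deviations between -0.19 and 0.31. With 3 libraries per group, these cannot show whether the numbers pair the libraries. With the replicate number as a block, 0 ribosomal protein genes and 0 genes were called in each comparison, and the medians were 0.025, 0.093 and 0.059 for UNC0642 mutants against saline mutants, UNC0642 mutants against wild type and saline mutants against wild type. Depth, at 12035098 to 16165483 reads, limits Rpl30, Rps27 and Rpl34, which had about 1 RPM.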
